A study of Arabidopsis thaliana with 6 samples.

Results

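The STP (sugar transport protein) genes of Arabidopsis thaliana encode hexose transporters. The 10 rows of the deposited expression table described here were picked by gene identifier alone and carry STP1, STP2, STP4, STP6, STP8, STP9, STP10, STP11, STP13 and STP14, out of 27655 genes measured. RNA was measured in 3 libraries of sperm cells (SCs) and 3 libraries of vegetative nuclei (VN) from mature pollen, made with Smart-seq2, a full-length cDNA method for very small inputs. All plants were of 1 marker line, given as genotype WT, that carried both MGH3p::MGH3-GFP, by which SCs were sorted, and ACT11p::H2B-mRFP, by which VN were sorted. The values are TPM (transcripts per 1000000), which take transcript length into account, so that levels of different genes can be set beside each other. TPM keep no record of read numbers, and the depth of each library is therefore unknown. The SC libraries hold whole cells and the VN libraries hold nuclei, so a difference between cell types cannot be told apart from a difference between cell and nuclear RNA. Likewise, fewer transcripts per cell cannot be told apart from fewer cells that hold them in such bulk samples.

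STP proteins sit in the plasma membrane and import monosaccharides together with protons. Sucrose that reaches the apoplast is split by cell wall invertases into glucose and fructose, which STPs can take up and which hexokinases and fructokinases phosphorylate inside the cell. Pollen has no symplastic connection to the anther around it, and its tube grows by taking up sugars from the surrounding tissue, so it depends on such carriers. The vegetative cell makes the tube, and the SCs are carried inside it.

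In these libraries the family was represented mostly by STP11, and STP11 was 45.0 times as high in VN as in SCs by mean TPM. The size of this difference depends on a few very abundant genes. With the 10 highest genes of each library removed, the log2 fold change of STP11, SC minus VN, was -4.66 in place of -5.43. STP6 came next in both cell types, at a much lower level, and did not pass the test for a difference. The other 8 genes stayed below 5 TPM in every library.

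Since near-identical copies can exchange reads, the sequences of the members were compared first. Over the 45 pairs, the coding sequences were 59.2% to 81.5% identical, with a median of 63.1%. STP6 and STP8 were the closest pair at 81.5%, and STP9 and STP10 followed at 80.2%. STP11 was closest to STP9, at 70.7%. None of the 1987 words of 31 bases in the longest STP11 transcript occurred in a RefSeq mRNA of another gene. The same was true of STP2, STP13 and STP14. Other RNAs and the authors' reassembled transcripts, from which the TPM came, were not searched. STP6 shared 2 of its 1854 words with STP8, STP10 shared 10 of 1515 with STP9, and STP9 shared 46 of 1892 with STP10 and with the overlapping gene AT1G50320. STP1 shared 313 of 2453 words, or 12.8%, with AT1G11270, which overlaps it on the opposite strand by 438 bases, and with AT1G48700. Its values are therefore uncertain. A stretch of 60 coding bases of STP11 is shown with the matching stretches of STP9 and STP10, because it holds the longest run that STP11 shared with STP9, its closest member. Capitals mark the bases that differ from STP11, of which STP9 has 7 and STP10 has 6. The coordinates are of TAIR10.1, all on the plus strand, and the sequences were read from the RefSeq genome: chr5:7840726-7840785 for STP11, chr1:18637953-18638012 for STP9 and chr3:6939824-6939883 for STP10.
STP11: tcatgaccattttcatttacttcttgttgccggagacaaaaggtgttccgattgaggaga
STP9: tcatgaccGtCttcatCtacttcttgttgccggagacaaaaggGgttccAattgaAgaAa
STP10: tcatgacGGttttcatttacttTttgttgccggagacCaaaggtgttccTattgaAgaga
The longest run shared by STP11 and STP9 was 26 bases. STP11 shared a longer run of 30 bases with STP10, just under the word length of 31 bases.

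STP11 (AT5G23270) is a hexose/proton symporter known from pollen tubes. It lies on chromosome 5 from 7838863 to 7841077 of TAIR10.1, on the plus strand, in a single annotated transcript of 3 exons with 1545 coding bases, and no other gene overlaps it. STP11 had 17.0, 21.9 and 24.5 TPM in the SC libraries, against 982, 1059 and 814 TPM in the VN libraries. All 3 VN libraries lay far above all 3 SC libraries. The mean was 21.1 ± 3.79 TPM in SCs and 952 ± 125 TPM in VN, given as SD over 3 libraries each. The log2 fold change of SC minus VN on log2(TPM + 1) was -5.43 (SE 0.21, 95% interval -5.91 to -4.95), with a limma adjusted p of 3.05e-07. A gene was called where the log2 fold change exceeded 1 in either direction at an adjusted p below 0.01, and STP11 was the only member called, out of 4 tested. Over all genes, 64.9% of the 10955 tested were called, 29.2% as higher in SCs and 35.6% as higher in VN. A call by itself therefore does not set STP11 apart. The excess of calls in VN over those in SCs was reversed under some normalizations, given below. The median log2 fold change of all tested genes was -0.55, and STP11 lay at -4.88 relative to it. STP11 ranked at 2653, 2202 and 2004 among the genes of the SC libraries, against 192, 180 and 210 among those of the VN libraries. An exact permutation test over the 3 and 3 libraries gave p = 0.1, two-sided, the smallest it can give.

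**Figure D1:**
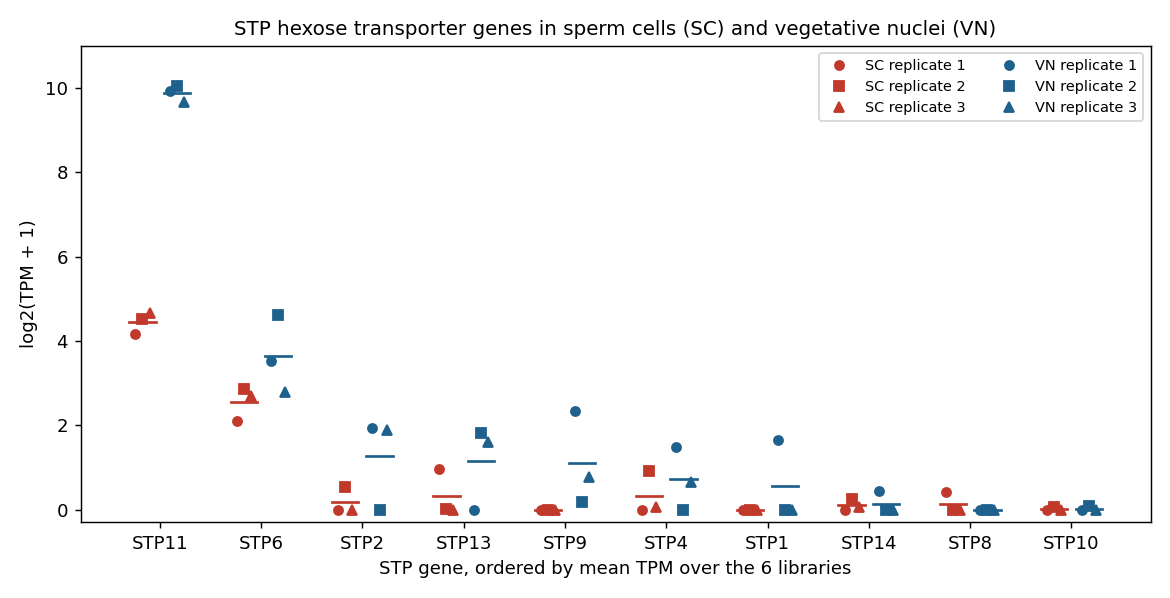
Levels of the 10 STP genes, as log2(TPM + 1), in each library, with SCs in red to the left of VN in blue; bars are means over the 3 libraries of a cell type. STP11 in VN, at 814 to 1059 TPM, stands above every other value, STP11 in SCs follows at 17.0 to 24.5 TPM, and STP6 spans 3.31 to 23.4 TPM. The other 8 genes lie below 5 TPM.

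STP6 (AT3G05960), a monosaccharide/proton symporter known from late pollen development, had 3.31, 6.31 and 5.48 TPM in the SC libraries, against 10.5, 23.4 and 5.95 TPM in the VN libraries. The third VN library was below the second SC library, so the groups overlapped. The mean was 5.03 ± 1.55 TPM in SCs and 13.3 ± 9.07 TPM in VN. The log2 fold change was -1.09 (SE 0.48, 95% interval -2.19 to 0.02), with a limma adjusted p of 0.0681, and was -0.54 relative to the median of all tested genes. The interval includes 0. Without the second VN library, the highest, the log2 fold change was -0.60, and without the third, the lowest of VN, it was -1.51, called in neither case. STP6 is annotated on chromosome 3 from 1783388 to 1785495, on the minus strand, with 3 exons and 1524 coding bases.

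STP2, STP9 and STP13 averaged at least 1 TPM in VN but not in SCs, which is the level taken here as expressed. STP2 (AT1G07340), a symporter known from early pollen development, was listed at 0, 0.452 and 0 TPM in the SC libraries, against 2.84, 0 and 2.72 TPM in the VN libraries. Values of 0 in both cell types made the groups overlap. Its log2 fold change was -1.10 (SE 0.55, 95% interval -2.38 to 0.18), with a limma adjusted p of 0.1. Without the second VN library, in which STP2 was listed at 0, the change was -1.74 and the limma adjusted p 0.00139, so that STP2 was then called. STP13 (AT5G26340), a high-affinity hexose symporter known for its induction under pathogen attack, had 0.958, 0.0120 and 0 TPM in the SC libraries, against 0, 2.51 and 2.06 TPM in the VN libraries. Here too the groups overlapped, with a log2 fold change of -0.81 (SE 0.55, 95% interval -2.08 to 0.46) and a limma adjusted p of 0.202. Without the first VN library, in which STP13 was listed at 0, the change was -1.38 and the limma adjusted p 0.0157, still not called. STP9 (AT1G50310), a glucose transporter of pollen, was listed at 0 in the 3 SC libraries, against 4.10, 0.126 and 0.723 TPM in the VN libraries. Thus all VN values of STP9 were above those of SCs, yet STP9 reached 1 TPM in 1 library only and was not tested. AT1G50320, which overlaps STP9 by 66 bases on the opposite strand, was listed at 0 in all 6 libraries.

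The other 5 genes averaged below 1 TPM in both cell types and were not tested. STP4 (AT3G19930), a symporter known from sink tissues, had 0, 0.881 and 0.0366 TPM in the SC libraries, against 1.79, 0 and 0.583 TPM in the VN libraries. STP1 (AT1G11260), the main glucose importer of seedlings, was listed at 0 in all SC libraries, against 2.13, 0 and 0 TPM in the VN libraries. Its overlapping neighbour AT1G11270 had 1.25, 0 and 0 TPM in the SC libraries, against 1.26, 2.44 and 0 TPM in the VN libraries. Without strand, reads from the stretch that both genes cover cannot be told apart. STP14 (AT1G77210), which carries galactose, had 0, 0.189 and 0.0437 TPM in the SC libraries, against 0.348, 0 and 0 TPM in the VN libraries. STP10 (AT3G19940) was above 0 in 1 SC library, at 0.0374 TPM, and in 1 VN library, at 0.0523 TPM. STP8 (AT5G26250) was above 0 in a single SC library, at 0.332 TPM, and in no VN library. All 5 overlapped between the cell types. Among the 10 members, only STP11 and STP9 had all VN libraries above all SC libraries, and none had all SC libraries above. Over the tested genes, 77.3% were so separated in either direction, 41.8% with VN above and 35.5% with SCs above. Of the tested members only STP11 was so separated, and STP9 and the other untested members are not part of that share. STP10 lies 1013 bases from STP4 on chromosome 3.

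A value of 0 in this table does not show that a gene is silent. Of 373 genes whose description names a ribosomal protein, 166 to 177 were listed at 0 in the SC libraries, against 131 to 258 in the VN libraries. A cell need not use each of these genes, so the counts do not tell missed transcripts from silent genes. The second VN library had the fewest genes above 0, at 10202, against 13649 and 15289 in the other VN libraries and 12418 to 15112 in the SC libraries. STP1, STP2, STP4 and STP14 were all listed at 0 in that library and also in the first SC library, which had 13735 genes above 0. Without STP11 and STP6, the remaining 8 members summed to 1.29, 1.57 and 0.0803 TPM in the SC libraries, against 11.2, 2.69 and 6.08 TPM in the VN libraries. Summed over 7 markers of the tapetum, the anther tissue that feeds pollen, the range was 0.0245 to 0.800 TPM in the SC libraries, against 0.0614 to 4.95 TPM in the VN libraries, lowest in the second VN library, with LTP12 at 0 in all 6 libraries. The part of other cells in the low STP values was not tested.

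The order of levels was the same at the top in both cell types. STP11 was 4.20 times STP6 in SCs and 71.6 times STP6 in VN by their means, and the lowest STP11 value exceeded the highest STP6 value in each cell type. STP6 in turn exceeded each of the other 8 genes in every library. Below STP6, the libraries of neighbouring genes overlapped, so no order is given among them. Summed over the 10 members, the libraries held 21.6, 29.8 and 30.1 TPM in SCs, against 1003, 1085 and 826 TPM in VN, a ratio of means of 35.8 for VN over SCs. The ratio was lower with the 10 highest genes of each library removed. STP11 held 78.7%, 73.5% and 81.5% of this sum in the SC libraries, against 97.8%, 97.6% and 98.5% in the VN libraries. STP6 held 18.2% ± 2.94 in SCs and 1.31% ± 0.755 in VN, again with SD over 3 libraries. With STP11 left out, the sums averaged 6.01 ± 1.68 TPM in SCs and 20.0 ± 7.21 TPM in VN, or 3.32 times as much in VN.

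Both reporters' own genes followed the sort. MGH3, the sperm histone whose promoter drives the GFP fusion, averaged 5095 ± 836 TPM in SCs and 88.6 ± 61.1 TPM in VN, and since the transgene carries MGH3 itself, this is no check independent of the sort. ACT11, the actin gene whose promoter drives the RFP fusion, averaged 17.2 ± 2.66 TPM in SCs and 199.5 ± 35.1 TPM in VN. All 10 sperm cell markers were called higher in SCs, and all 12 vegetative cell markers higher in VN. Across the 12 vegetative markers, the mean in SCs was 0% to 8.68% of that in VN, with a median of 2.41%, and for STP11 it was 2.22%. Of the 273 genes whose VN mean was within 2 times that of STP11, 117 had an SC share as low as that of STP11 or lower, with a median of 2.47%. The SC share of STP11 thus lay between the quartiles of genes of similar VN abundance, 1.37% and 4.34%. For STP6 the SC mean was 37.9% of the VN mean, above that of every vegetative marker, although the spread of STP6 in VN was wide. The part of vegetative cell RNA in the SC values of STP11 and STP6 was not tested. The markers of green tissue summed to 344 to 519 TPM in the SC libraries, against 3.11 to 8.49 TPM in the VN libraries, nearly all from RBCS3B. Of the 8 green tissue markers 2 were tested, RBCS3B and RBCS2B, and both were called higher in SCs, RBCS2B at 4.13, 1.47 and 3.84 TPM in the SC libraries, against 0 in all VN libraries. The other 6 stayed below 1 TPM in every SC library. In the first VN library CAB1 had 2.32 TPM and RBCS1A 1.465 TPM, and both were at 0 in the other VN libraries. The part of green tissue RNA in the STP values was not tested.

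**Figure D2:**
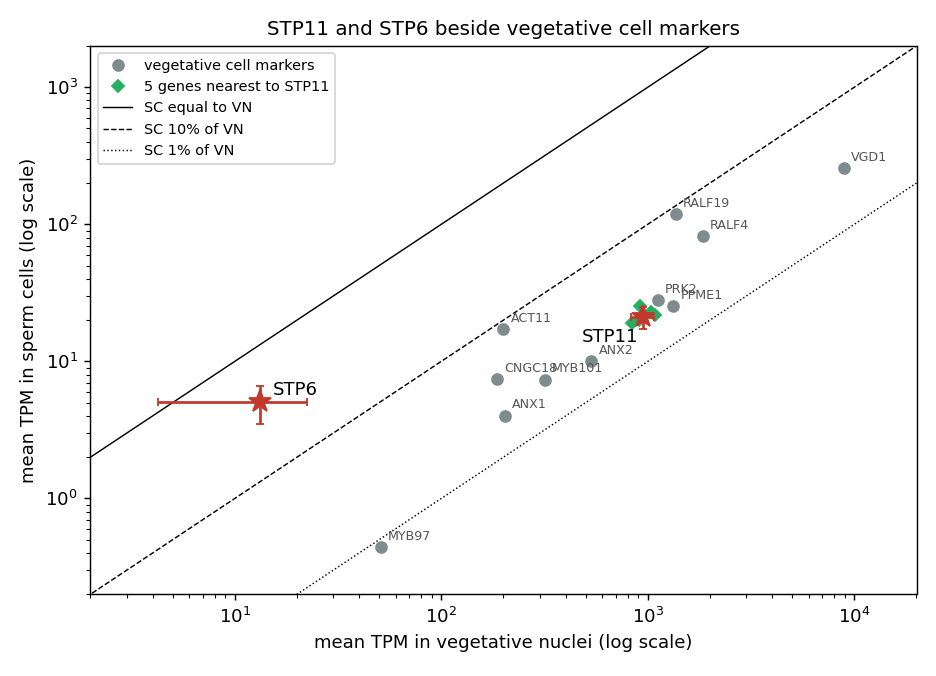
Mean TPM in SCs (vertical, log scale) against mean TPM in VN (horizontal, log scale) for STP11 and STP6 (stars, with SD over 3 libraries), 11 vegetative cell markers (grey; MYB120 is listed at 0 in SCs and is not drawn) and the 5 genes nearest to STP11 (green). STP11, at 21.1 and 952 TPM, lies among the markers, and STP6, at 5.03 and 13.3 TPM, lies nearer to the line of equal levels.

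The 5 genes whose levels over the 6 libraries were nearest to those of STP11, by Euclidean distance of log2(TPM + 1), were SBT3.16, scpl37, COBL10, PBL23 and EXL6, at distances of 0.401 to 0.450. SBT3.16 (AT1G66210), a subtilisin-like protease, was nearest, with 17.2, 25.8 and 26.3 TPM in the SC libraries, against 1087, 1022 and 986.5 TPM in the VN libraries. COBL10, a COBRA-like protein known from pollen tube guidance, averaged 20.2 ± 1.53 TPM in SCs and 910 ± 43.2 TPM in VN. The serine carboxypeptidase-like gene scpl37, the protein kinase gene PBL23 and EXL6 of the EXORDIUM family had VN means of 836 to 1079 TPM. The distances describe levels in 6 libraries that fall into 2 cell types, and many genes share such a pattern.

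Upstream of the gene starts, 250 bases were read for the members other than STP11. The windows of STP6 and STP9 are shown because STP6 had the highest level of these genes, and STP9 alone was above 0 in all VN libraries and at 0 in all SC libraries. Capitals mark the longest run of bases that occurs more than once without overlap within the window. All are written 5′ to 3′ on the strand of the gene, from the RefSeq genome of TAIR10.1: chr3:1785496-1785745 (minus strand) for STP6 and chr1:18635705-18635954 (plus strand) for STP9.
STP6: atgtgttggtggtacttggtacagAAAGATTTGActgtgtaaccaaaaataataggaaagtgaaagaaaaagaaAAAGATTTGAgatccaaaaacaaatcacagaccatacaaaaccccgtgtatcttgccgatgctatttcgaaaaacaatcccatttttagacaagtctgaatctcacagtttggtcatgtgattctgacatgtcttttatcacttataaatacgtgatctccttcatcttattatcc
STP9: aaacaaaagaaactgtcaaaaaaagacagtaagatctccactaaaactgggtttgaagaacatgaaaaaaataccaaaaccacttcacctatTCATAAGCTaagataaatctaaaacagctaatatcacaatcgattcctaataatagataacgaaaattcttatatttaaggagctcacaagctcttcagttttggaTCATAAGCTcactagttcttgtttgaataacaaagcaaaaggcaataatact
The runs are 10 bases long in STP6 and 9 in STP9, against a median of 8 over 27443 promoters of the same length. A run at least as long was found in 28.5% of these promoters for STP6 and in 48.1% for STP9, so neither is unusual in length.

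Motifs were searched on both strands. AGAAA, the pollen box known from tomato, matched 3 times in STP6 and once in STP9, but 82.5% of all promoters hold it and the low STP8 had 4 matches. GTGA, likewise known from a late pollen promoter of tobacco, had 6 matches in STP6 and 4 in STP9, and 77.6% of all promoters hold it. TTGAC, the core bound by WRKY factors, had 1 match each in STP6 and STP9, against 44.9% of all promoters with at least 1. A MEF2-type CArG box, the element of MIKC*-type MADS-box factors in pollen, was in the windows of STP9 and STP10 and in none of the other windows searched, against 2.15% of all promoters. The STP8 and STP10 models begin at the coding start, so their windows are not set to an annotated transcript start. Matches are letters in a window and are given as a description.

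The 4 other STP genes, STP3, STP5, STP7 and STP12, gave no call in either direction among 2 tested, with a median log2 fold change of -1.09. Over all tested genes 64.9% were called and the median was -0.55. STP12 had 1.29, 1.88 and 5.22 TPM in the SC libraries, against 3.40, 5.79 and 7.99 TPM in the VN libraries, which overlap (log2 fold change -0.90, limma adjusted p 0.105). STP7 averaged 0.0180 TPM in SCs and 2.22 TPM in VN (log2 fold change -1.28, limma adjusted p 0.0892), and without the second VN library, where it was at 0, it was called, at -1.93 and 0.00563. STP3 and STP5 stayed below 1 TPM on average. In VN, STP11 therefore exceeded all other genes of the family, members or not, by a wide margin.

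Among 22 other carriers of monosaccharides, inositol and polyols, 13 were tested, of which 8 were higher in VN, 1 higher in SCs and 4 not called, beside 35.6% higher in VN and 29.2% higher in SCs among all tested genes. Their median on the log2 scale was -2.71, or -3.81 over the 10 that were not at 0 throughout a cell type, against -0.55 over all genes. ERDL6, which exports glucose from the vacuole, averaged 0.826 ± 0.199 TPM in SCs and 356 TPM in VN (-7.60 on the log2 scale). VGT1, a vacuolar glucose transporter, averaged 2.66 ± 0.521 TPM in SCs and 318 ± 66.0 TPM in VN (-6.44). The tonoplast sugar importer TMT1 averaged 1.93 TPM in SCs and 85.3 TPM in VN (-4.92), and TMT3 averaged 0.0170 TPM in SCs and 5.18 TPM in VN (-2.57). PLT4, named as a polyol transporter, averaged 0.483 TPM in SCs and 48.3 TPM in VN (-5.06), and the inositol carriers INT4 and INT1 were likewise higher in VN, at -4.47 and -3.15. SGB1 was also higher in VN, at -2.71. Thus STP11, at 952 TPM, was more abundant in VN than each of these carriers, of which ERDL6 was the highest. AT5G17010, which RefSeq names a vacuolar glucose transporter, was the carrier higher in SCs, with a mean of 10.8 ± 3.96 TPM in SCs, against 0 in all VN libraries (limma adjusted p 4.39e-05).

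The 4 carriers tested and not called all averaged below 5 TPM in both cell types. PMT2 was listed at 0 in all SC libraries, against 2.67, 9.19 and 0.989 TPM in the VN libraries, with a limma adjusted p of 0.0103, which fell to 0.00186 without the third VN library. PLT6 (PMT6 in RefSeq) was at 0 in all SC libraries, against 1.87, 0 and 2.22 TPM in the VN libraries, and was called without the second VN library (limma adjusted p 0.000647). TMT2 averaged 1.29 TPM in SCs and 0.576 TPM in VN, and was called as higher in SCs without the third VN library (log2 fold change 1.15). The plastidic carrier pGlcT averaged 1.03 TPM in SCs and 0.747 TPM in VN (0.43). ESL1 was expressed but not tested, with 8.98 TPM in a single SC library.

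Cell wall invertases supply the hexoses that STPs import. Of 6 genes listed by that name, whose enzyme activity was not examined, 3 were tested. All 3 were called, 1 higher in VN and 2 higher in SCs, beside 64.9% called among all tested genes. cwINV2 had a mean of 18.0 ± 3.92 TPM in SCs and 1382 ± 176 TPM in VN (log2 fold change -6.20, limma adjusted p 2.59e-07). Its levels were close to those of STP11 in SCs and above them in VN. cwINV4 averaged 40.8 ± 4.50 TPM in SCs and 0.639 TPM in VN (4.86), and cwINV5 averaged 13.3 ± 3.48 TPM in SCs and 0.804 TPM in VN (3.04). The median of the 3 was 3.04. cwINV3 averaged 0.333 TPM in SCs and 1.91 TPM in VN and was not tested. Its VN values were 0.189, 0 and 5.55 TPM, so the VN mean rests on a single library.

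The next list held 15 genes named as kinases of hexoses, galactose and arabinose, with the hexokinase-like HKL1, HKL2 and HKL3 among them. Whether the hexokinase-like proteins phosphorylate hexoses was not examined. Of the 15, 7 were tested, 3 were higher in VN, 2 higher in SCs and 2 not called. Over all tested genes, 35.6% were higher in VN and 29.2% higher in SCs. The 7 tested genes of the list had a median log2 fold change of 0.22, or -0.71 without the gene at 0 in all VN libraries. HXK1, hexokinase and glucose sensor, averaged 0.228 TPM in SCs and 76.3 ± 24.9 TPM in VN (log2 fold change -5.93). HKL3, a hexokinase-like gene, averaged 0.00587 TPM in SCs and 25.9 TPM in VN (-4.73). AT5G51830, a pfkB-type carbohydrate kinase, was higher in VN (-1.63, limma adjusted p 0.00895), but lost the call when any 1 library other than the third of VN was left out, with values from -1.88 to -1.36. GALK, the galactokinase, averaged 47.7 ± 7.74 TPM in SCs and 1.14 ± 0.650 TPM in VN (4.54). HKL1 averaged 2.38 ± 0.567 TPM in SCs, against 0 in all VN libraries, and was called as higher in SCs (limma adjusted p 9.29e-04), but not when all genes were tested without a filter (0.0118). HKL2 was not called, at 47.3 ± 7.29 TPM in SCs and 40.9 ± 8.49 TPM in VN (log2 fold change 0.22, 95% interval -0.35 to 0.78), although it was called as higher in SCs, at 1.01, with the 10 most abundant genes per library taken out. ARA1, the arabinose kinase, had 2.77, 1.49 and 2.04 TPM in the SC libraries, against 1.83, 0 and 0 TPM in the VN libraries (log2 fold change 1.11, limma adjusted p 0.0608), and was called without the first VN library (1.61, 0.0027) and after centring on library medians (1.63, 0.00955). AT2G31390 was expressed in VN, at 1.33 TPM, against 0.192 TPM in SCs, and was not tested. Its VN values were 0.436, 0 and 3.54 TPM, so that mean rests on a single library.

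**Figure D3:**
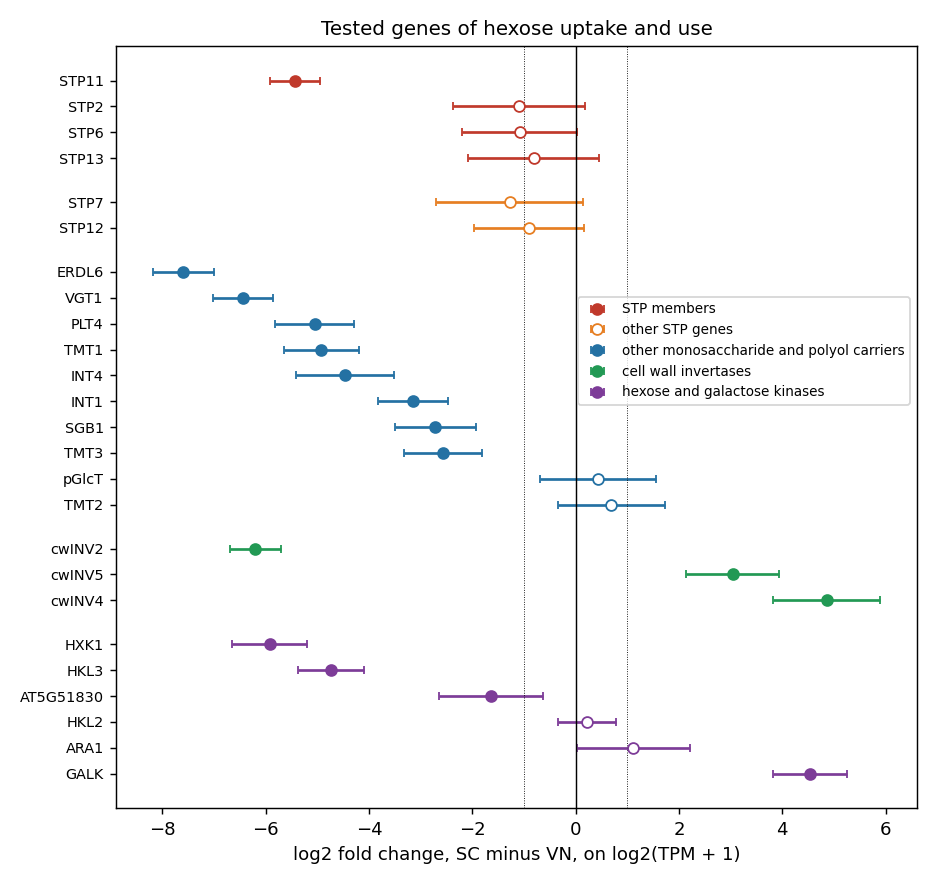
Log2 fold change of SC minus VN on log2(TPM + 1), with 95% intervals, for the tested genes of the 5 lists that were not at 0 throughout a cell type; filled points were called, and dotted lines mark a log2 fold change of 1 in size. STP11 lies at -5.43 beside cwINV2 at -6.20 and HXK1 at -5.93, while the intervals of the other tested STP genes include 0.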

How the data were processed

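RNA was measured in 6 Smart-seq2 libraries, 3 of SCs and 3 of VN. Per the paper and the labels, the authors trimmed reads with Trim Galore, used Hisat2 for mapping to TAIR10, Stringtie for transcript assembly and Salmon for abundance, and they deposited 1 table of TPM per gene and library. How transcripts were summed into genes is not given in the sources used here. Each library sums to 1000000 TPM, so the read number of each library is unknown. The paper lists total reads per cell type, at similar totals for SCs and VN, but not per library. A few very abundant genes lower the TPM of all others: the 10 highest genes hold 42.8% to 49.9% of TPM in SC libraries and 12.7% to 15.2% in VN libraries. Within SCs the libraries correlated at 0.974 to 0.976 across genes, within VN at 0.927 to 0.939. Replicates are labelled as biological. Sorting was done in batches, and the batch of each library is not given in the sources used here.

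Genes that reached 1 TPM in 2 or more of the 6 libraries entered a linear model in limma 3.58.1 (R 4.3.3) on log2(TPM + 1), SC minus VN, with moderated variances (empirical Bayes, mean-variance trend). The test was two-sided, with Benjamini-Hochberg adjustment over all tested genes, and calls needed an adjusted p below 0.01 with a log2 fold change exceeding 1 in either direction. The pseudocount of 1 understates changes of low genes. The log2 fold changes come from this fit and not from the deposited table. A gene averaging at least 1 TPM was taken as expressed. No replicate block was used.

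The text names all 10 members, the reporter genes MGH3 and ACT11, the 5 genes nearest to STP11, and every gene of 4 pathway lists that was called or was expressed. The overlapping genes of STP1 and STP9 and some marker genes were named in addition. Members, lists and markers were chosen with earlier results of these data known, and the promoter repeats and the share of SC over VN among genes of similar abundance were examined after the values had been seen. Gene models and sequences came from RefSeq TAIR10.1, whose coordinates were checked against the study's TAIR10 splicing coordinates: 97.4% of 1200 introns ended in GT and AG. The sequence before the STP11 gene start is not reported here. Identities came from pairwise alignment with Biopython 1.88. The fitting procedure was tested on simulated data in which only more abundant genes were changed, so this test did not cover genes as low as most members. Software was Python 3.11.15 with scipy 1.17.1, pandas 2.3.3, numpy 2.4.6 and, for figures, matplotlib 3.10.9. Alternatives were another pseudocount (0.1), no filter, a filter of 3 libraries, quantile normalization, centring on library medians, removal of the 10 highest genes of each library, no trend, a replicate block, and leaving out each library.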

Additional observations from a re-analysis of the deposited data

How the results depend on the processing

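STP11 was higher in VN under every alternative, with log2 fold changes from -5.54 to -4.55, and STP6 was called under none, with values from -1.51 (without the third VN library, limma adjusted p 0.0148) to -0.40. Leaving out each library gave 1 to 2 called members, with 2 only without the second VN library, where STP2 changed from -1.10 to -1.74 (limma adjusted p 0.00139). Over the left-out libraries STP2 ranged from -1.74 to -1.01, the other STP genes higher in VN numbered 0 to 1, and the other carriers higher in SCs numbered 1 to 2. Without a filter 1 gene of the kinase list was higher in SCs, since HKL1 lost its call. Its log2 fold change was unchanged, but its SE was 0.39 in place of 0.30 and its limma adjusted p 0.0118. With the 10 highest genes of each library removed, the summed STP level averaged 57.8 TPM in SCs and 1172 TPM in VN. Both means rose by construction, since the other genes were rescaled, and the ratio of VN over SCs was lower than with all genes. No tested member and no tested gene of the pathway lists changed direction under any alternative in which it had a value. Same-numbered SC and VN libraries did not deviate together (correlations 0.0085, -0.035 and -0.0194 across genes). Libraries can share a batch without such a correlation, so these values cannot decide whether the numbers pair samples. With a replicate block, 6927 genes were called in place of 7105, STP11 stayed at -5.43 (limma adjusted p 3.22e-07) and STP6 had an adjusted p of 0.0409. The block changed no member's call, but PMT2 gained its call (0.00653) and AT5G51830 lost it (0.0169). AT5G51830 also lost its call with a pseudocount of 0.1, without a filter, under quantile normalization, median centring and removal of the highest genes. PMT2 was also called with a pseudocount of 0.1 (0.00177) and with the highest genes removed (0.00947), and ARA1 after centring (0.00955). The median of all tested genes was -0.55 in the fit reported, -0.13 after quantile normalization and -0.03 after centring. It changed sign, to 0.07, with the highest genes removed. The balance of calls also depended on the normalization. In the fit reported, 3901 genes were higher in VN and 3204 higher in SCs. These counts were 3577 and 3774 after quantile normalization, and 3345 and 3894 after centring. With the highest genes removed they were 3441 and 3879. Under every other alternative more genes were called higher in VN. STP2 without the first or the third VN library, STP13 without the second or the third, and both under the filter of 3 libraries did not pass the filter and have no value. With the depth of each library unknown, a gene listed at 0 cannot be called absent, and no counting error can be given. With 3 libraries per cell type, single values have p of at least 0.1 by permutation.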
